A study of Mus musculus with 27 samples.

Results

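Messenger RNAs of 10 mouse genes that encode neuronal regulators of RNA splicing and RNA stability were followed through 3 cell types and 3 subcellular fractions. The genes are Rbfox1, Rbfox2, Rbfox3, Nova1, Nova2, Elavl2, Elavl3, Elavl4, Srrm4 and Khdrbs2. They were chosen by symbol, through the Ensembl identifiers of the deposited tables, and all 10 were found among 37332 genes of the count table and 53379 genes of the TPM table. The cell types were mESC, the E14 line of embryonic stem cells kept with LIF; mNPC, a neuronal progenitor line that the submitters established themselves, given 10 ng/ml each of the growth factors EGF and FGF every day in medium with B27 lacking vitamin A; and mCtx, primary cortical neurons after 5 days in culture. Each was separated into chromatin, soluble nucleoplasm and cytoplasm, and polyadenylated RNA over 200 nt was sequenced from 3 biological replicates per cell type and fraction, which gave 9 groups and 27 libraries. The mESC and mNPC replicates come from 1 line each, so their spread does not include variation between lines. The 3 cell types are separate cultures. A rise, fall or step between them is a difference between cultures, not a change followed along 1 lineage. No genotype or agent besides these culture conditions is given in the labels.

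The proteins act on RNA in distinct ways. RBFOX proteins bind the RNA motif UGCAUG beside alternative exons and either promote or repress the exon depending on the side on which they bind. RBFOX3 is the antigen known as NeuN, a common marker of mature neurons. NOVA proteins bind clusters of the motif YCAY and control exons of many synaptic transcripts. The ELAVL proteins ELAVL2, ELAVL3 and ELAVL4, also called neuronal Hu proteins, bind U-rich and AU-rich stretches, stabilise transcripts and also affect splicing, whereas their paralog ELAVL1 is present in most cells. SRRM4, also called nSR100, promotes the inclusion of neuronal microexons, and KHDRBS2, also called SLM1, is a STAR-family protein that regulates alternative exons in neurons.

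Start sites of 9 of the 10 genes were found in the RefSeq promoter table of build GRCm38.p6, with 18 entries in all, since Elavl2, Elavl4 and Rbfox1 have several. Rbfox2 had no entry. The 250 bases before the start of Elavl3 and Srrm4, which both rose from progenitors to neurons in every fraction, are shown with those of Nova1, which fell. Capitals mark the letters CAGCTG or CAGATG, E-box sequences of the kind bound by neuronal basic helix-loop-helix factors, searched on both strands. The Elavl3 window is chr9:22052024-22052273, that of Srrm4 is chr5:116591818-116592067 and that of Nova1 is chr12:46818768-46819017. All 3 genes lie on the minus strand, and each window is written 5′ to 3′ along the gene.
Elavl3: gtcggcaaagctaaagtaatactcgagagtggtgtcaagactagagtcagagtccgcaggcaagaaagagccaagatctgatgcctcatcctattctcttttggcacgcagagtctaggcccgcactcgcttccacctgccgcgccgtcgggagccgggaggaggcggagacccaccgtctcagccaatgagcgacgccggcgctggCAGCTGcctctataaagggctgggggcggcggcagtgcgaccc
Srrm4: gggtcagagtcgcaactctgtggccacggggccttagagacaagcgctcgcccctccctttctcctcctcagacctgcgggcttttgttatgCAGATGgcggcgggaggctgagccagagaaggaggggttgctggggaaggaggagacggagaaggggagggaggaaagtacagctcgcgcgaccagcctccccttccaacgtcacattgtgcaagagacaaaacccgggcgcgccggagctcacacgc
Nova1: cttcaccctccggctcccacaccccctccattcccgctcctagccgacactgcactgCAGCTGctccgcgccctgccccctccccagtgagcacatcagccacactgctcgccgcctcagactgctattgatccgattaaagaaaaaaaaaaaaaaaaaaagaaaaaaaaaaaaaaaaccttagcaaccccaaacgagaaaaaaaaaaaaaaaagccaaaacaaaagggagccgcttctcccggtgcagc
CAGCTG was present in the windows of 4 of the 9 genes and CAGATG in those of 2. CAGCTG occurs in 13.0% of all 32851 windows of this length in the table, CAGATG in 14.4% and either in 25.5%, against 7 of the 18 windows of the 9 genes. Windows of one gene can overlap, and the same sites of Elavl4 are counted in more than 1 of the 7, which belong to 5 genes. The Elavl3 window holds CAGCTG 43 bases and TATAAA 33 bases before the start, that of Srrm4 holds CAGATG 158 bases before it and that of Nova1 holds CAGCTG 193 bases before it. TATAAA occurs in 12.4% of all windows. The letters TTCAGCACC, part of the element bound by the repressor REST, are in 0.3% of all windows and in none of the 18. These matches are letters in a window and are not measured binding sites.

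Read counts ran from 10622897 to 24537526 per library. Levels are given in CPM, read counts divided by library sizes that were scaled by the TMM method, and are relative to the RNA of a fraction, not to a cell. In these bulk samples fewer expressing cells and less RNA per cell cannot be told apart. TPM, the authors' length-corrected values, are used where genes are compared with each other, and a change given in TPM is on the log2(TPM + 1) scale, tested with limma, unless a pseudocount of 0.1 is named. A gene was called different when edgeR's Benjamini-Hochberg adjusted p was under 0.05 and the log2 fold change at least 1 in size. Changes are given as log2 fold change ± SE. The labelled cell types were compared with defining markers. The summed level of 10 pluripotency genes was 5372 to 6124 CPM in mESC cytoplasm and at most 16.2 CPM in mNPC and mCtx cytoplasm, where Pou5f1 and Zfp42 were at 0. The summed level of 13 cortical neuron genes was 11420 to 12457 CPM in mCtx cytoplasm, 784 to 940 CPM in mNPC, where Slc17a6 was at 0, and 491 to 515 CPM in mESC, where Dcx, Neurod6 and Slc17a6 were at 0.

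**Figure D1:**
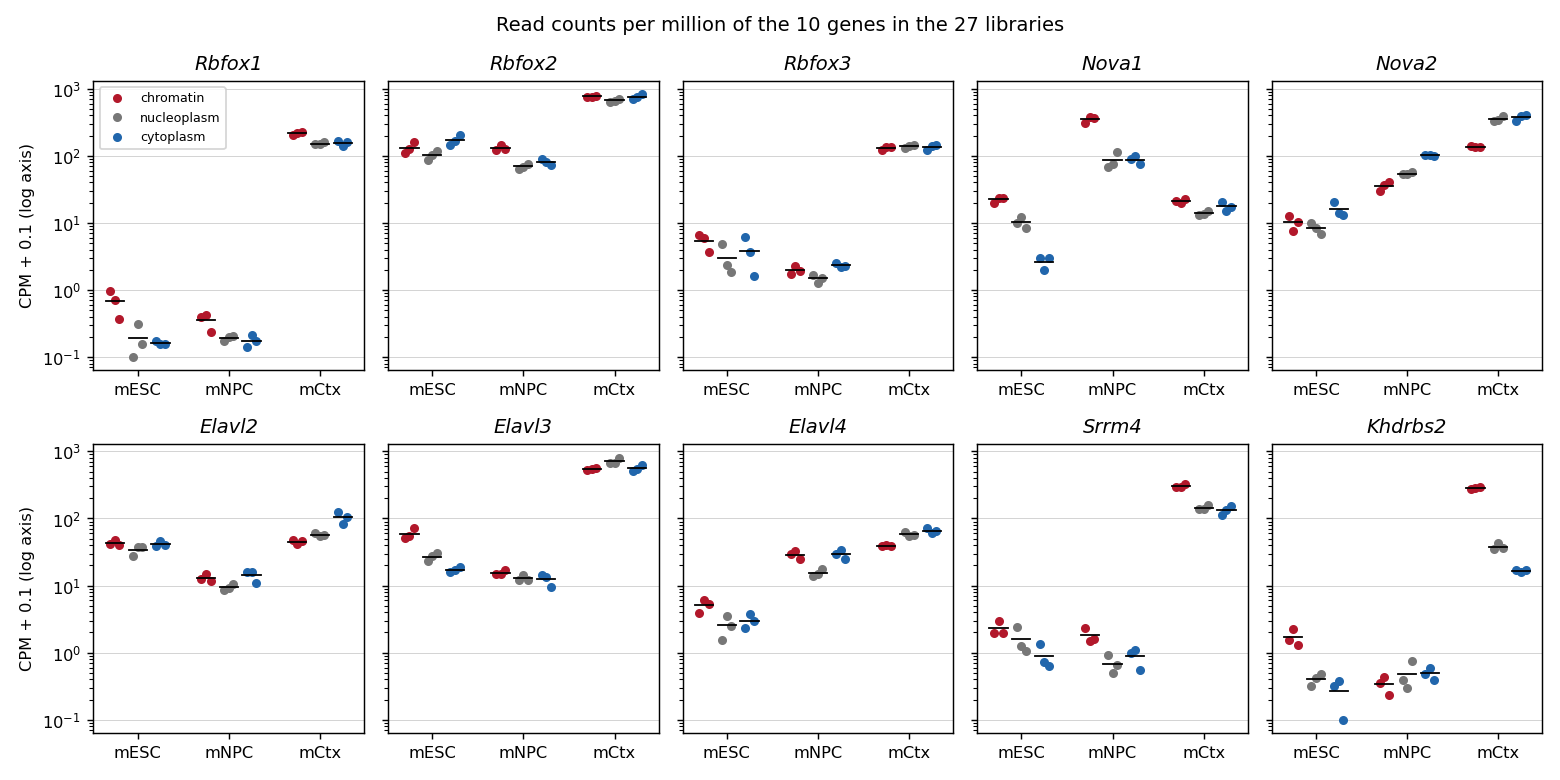
Level of each gene in CPM plus 0.1 on a log axis, by cell type; each point is 1 of 27 libraries, coloured by fraction, and bars are means of 3 libraries. Each gene except Nova1 and Elavl2 has its 9 mCtx libraries above all its mESC libraries, and Nova1 is highest in mNPC.

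The step from progenitors to cortical neurons moved all 10 genes in the cytoplasm. Of these, 9 rose and 1, Nova1, fell, where 44.4% of the 18226 genes tested were called, 24.4% higher and 20.0% lower. The median log2 fold change of the 10 was 4.29, against 0.00 over all genes tested. In chromatin 8 rose and 1 fell, where 44.8% of genes moved, 23.5% up and 21.4% down, and Elavl4 was not called. In nucleoplasm 9 rose and 1 fell, where 46.7% moved, 24.6% up and 22.1% down. The rises were steepest for Rbfox1, Srrm4, Rbfox3, Elavl3 and Khdrbs2 and smallest for Elavl4.

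From stem cells to progenitors the same genes went different ways. In the cytoplasm Nova1, Nova2, Elavl4 and Khdrbs2 rose and Rbfox2 and Elavl2 fell, where 59.4% of genes moved, 29.8% up and 29.6% down. In chromatin 3 rose and 5 fell, where 57.2% of genes moved, 25.3% up and 31.9% down. In nucleoplasm 3 rose and 4 fell, where 57.4% moved, 24.5% up and 32.8% down. The median log2 fold change of the 10 was 0.15 in cytoplasm, −0.73 in chromatin and −0.27 in nucleoplasm, beside −0.01, −0.14 and −0.25 over all genes. Measured directly between mCtx and mESC, all 10 were higher in mCtx cytoplasm, where 67.9% of genes were called, 35.7% higher and 32.2% lower. In mCtx chromatin 8 were higher and none lower, where 61.5% were called, 29.3% higher and 32.3% lower, and Nova1 and Elavl2 were not called. The comparisons share their mNPC or mESC libraries, so they are not independent of each other.

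**Figure D2:**
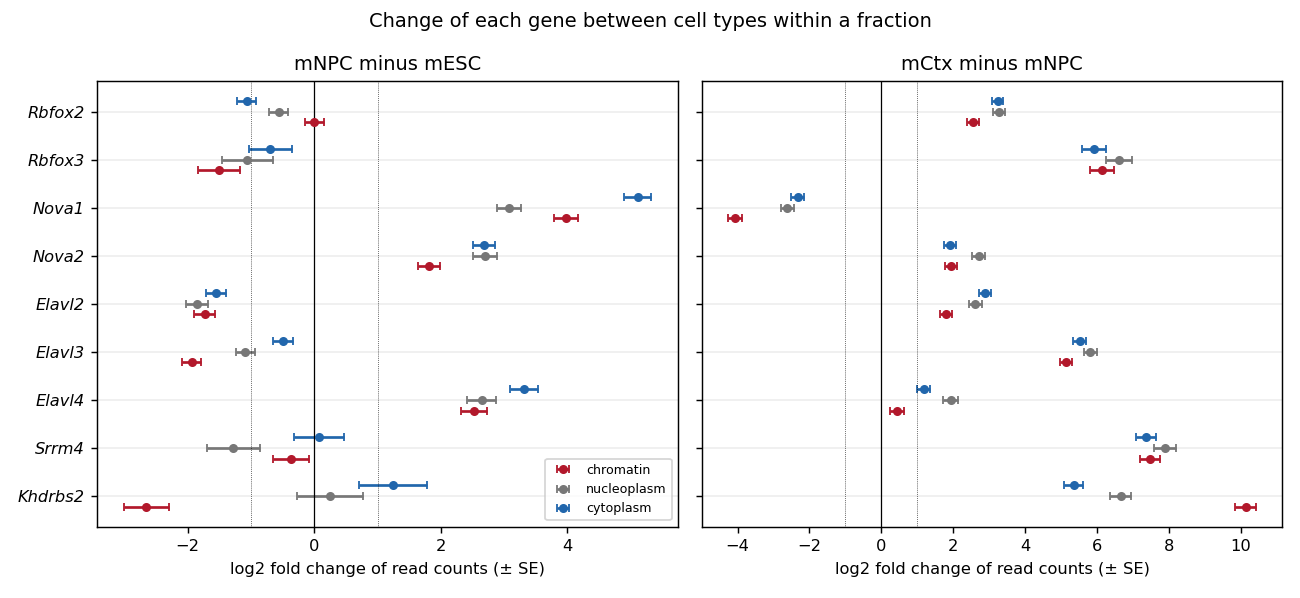
Log2 fold change of read counts with its SE for 9 genes between mNPC and mESC (left) and between mCtx and mNPC (right), by fraction; dotted lines mark a change of 1. Rbfox1 is left out because 3 or 4 counts lie behind its cytoplasmic levels in mESC and mNPC; on the right every gene but Nova1 lies above 0.

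Among the RBFOX genes, Rbfox1 was close to absent outside neurons. It had 3 counts in the 3 mESC cytoplasm libraries together and 4 in those of mNPC, and its cytoplasmic level was 164, 142 and 163 CPM in the mCtx libraries. The ratio of mCtx to mNPC cytoplasm was 2131, with a 95% exact interval of 832 to 7822 that covers counting error only, and that of mCtx to mESC was 2512 (859 to 12184). No library outside mCtx was above 0.876 CPM and no mCtx library was below 142 CPM, so the groups do not come near each other. In chromatin Rbfox1 had 39 counts in mESC and 15 in mNPC, with overlapping libraries and a ratio of mNPC to mESC of 0.463 (0.237 to 0.858). The call of this fall (−1.10 ± 0.40, edgeR adjusted p = 0.0149) was lost without mESC chromatin replicate 1 (−0.73) or mNPC chromatin replicate 3 (adjusted p = 0.069), and in TPM (−0.04).

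Rbfox2 was expressed in all 3 cell types. In cytoplasm its level was 145, 164 and 201 CPM in mESC, 88.3, 82.0 and 72.7 CPM in mNPC and 706, 750 and 828 CPM in mCtx. The mNPC libraries were lowest and the 3 cell types did not overlap. It fell from mESC to mNPC in cytoplasm by 1.07 ± 0.15 and rose from mNPC to mCtx by 3.23 ± 0.16 on the log2 scale (edgeR adjusted p = 4.4e-07 and 1.2e-15). The fall was at the edge of the fold threshold and was not called without mNPC cytoplasm replicate 3 (just under 1 in size) or on library totals without TMM (−0.92). In chromatin mESC and mNPC did not differ beyond their spread (131 ± 26.2 and 131 ± 12.4 CPM, SD, n = 3).

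Rbfox3 rose in mCtx to 122, 141 and 145 CPM in cytoplasm, from 2.45, 2.09 and 2.16 CPM in mNPC, a log2 fold change of 5.91 ± 0.33. All 9 mCtx libraries lay between 121 and 146 CPM whatever the fraction. In mESC its level differed between replicates: it was 6.04, 3.61 and 1.51 CPM in cytoplasm, with replicate 1 highest in each of the 3 fractions. The lower level in mNPC than in mESC was called in chromatin (−1.51 ± 0.33, but −0.66 and not called in TPM) and in nucleoplasm (−1.06 ± 0.41, edgeR adjusted p = 0.021). The nucleoplasm call was lost without mESC replicate 1 (−0.32) and without any of the 3 mNPC nucleoplasm libraries (−1.01, −0.81 and −0.89), and in cytoplasm the difference was −0.69 ± 0.34 and not called.

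The NOVA paralogs moved in opposite directions in the step to neurons. Nova1 was 2.87, 1.86 and 2.91 CPM in mESC cytoplasm, 88.6, 99.4 and 75.5 CPM in mNPC and 20.1, 15.0 and 17.4 CPM in mCtx. The progenitors stand above both other cell types without overlap. Nova1 rose by 5.11 ± 0.22 from mESC to mNPC and fell by 2.33 ± 0.18 from mNPC to mCtx (edgeR adjusted p = 2.8e-17 and 9.1e-12). In chromatin the same course was larger on the way down, from 352 ± 38.6 CPM in mNPC to 20.9 ± 1.51 CPM in mCtx (SD, n = 3), a log2 fold change of −4.07 ± 0.19. In CPM the mCtx chromatin level was not separable from that of mESC (22.2 ± 2.33 CPM), with a difference of −0.09 ± 0.17. In TPM the mCtx chromatin libraries lay above those of mESC without overlap, at 9.96 to 11.81 against 5.21 to 8.86 TPM.

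Nova2 rose at both steps. Its cytoplasmic level was 20.5, 13.8 and 13.0 CPM in mESC, 104, 102 and 97.7 CPM in mNPC and 328, 391 and 410 CPM in mCtx. Each cell type lay wholly above the one before. The log2 fold changes were 2.68 ± 0.18 and 1.90 ± 0.17. In TPM the pair changed order: Nova1 was 25.4, 35.5 and 22.1 TPM against 16.7, 15.9 and 14.0 TPM of Nova2 in mNPC cytoplasm, and 3.87, 3.62 and 4.38 TPM against 46.6, 48.8 and 61.6 TPM in mCtx.

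**Figure D3:**
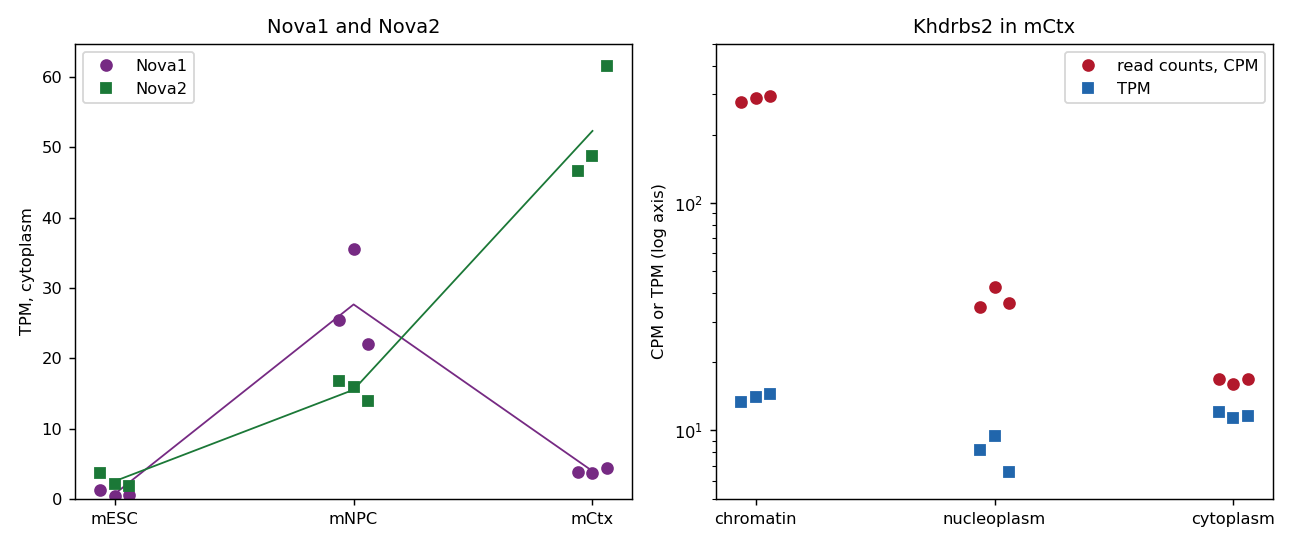
Left, TPM of Nova1 and Nova2 in cytoplasm by cell type, with points for the 3 libraries and lines through their means. Right, Khdrbs2 in the 3 fractions of mCtx on a log axis, in CPM of read counts and in TPM; the counts fall from 287 to 16.6 CPM between chromatin and cytoplasm while TPM stays between 6.59 and 14.49.

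The 3 neuronal ELAVL genes each followed their own course. Elavl2 was already present in stem cells. In cytoplasm it was 39.2, 45.5 and 40.3 CPM in mESC, 16.0, 15.7 and 10.7 CPM in mNPC and 124, 83.1 and 106 CPM in mCtx, so that mNPC was lowest and mCtx highest without overlap. It fell by 1.55 ± 0.16 and then rose by 2.88 ± 0.17. In chromatin its mCtx level, 44.9 ± 3.44 CPM, was within the spread of mESC, 42.9 ± 4.43 CPM (SD, n = 3), with a difference of 0.07 ± 0.16.

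Elavl3 gave the steepest rise of the family. Its level was 15.7, 17.2 and 18.9 CPM in mESC cytoplasm, 14.1, 13.2 and 9.39 CPM in mNPC and 510, 549 and 625 CPM in mCtx. The mESC and mNPC libraries were close but did not overlap, at −0.49 ± 0.15 and not called. From mNPC to mCtx it rose by 5.51 ± 0.18 (edgeR adjusted p = 2.2e-19). In mESC chromatin it stood at 51.4, 54.9 and 70.9 CPM and fell to 15.0, 14.6 and 16.7 CPM in mNPC chromatin (−1.94 ± 0.15). Its fall in nucleoplasm, −1.09 ± 0.16, was not called under 4 of the other counting settings (DESeq2, −0.99, among them) or without any of 3 single libraries: mESC nucleoplasm replicate 3 (−0.996), mNPC nucleoplasm replicate 1 (−0.88) or replicate 3 (−0.87).

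In cytoplasm Elavl4 differed more between mESC and mNPC than between mNPC and mCtx. It was 2.21, 3.67 and 2.85 CPM in mESC, 29.4, 33.6 and 24.6 CPM in mNPC and 72.9, 60.5 and 64.3 CPM in mCtx. The log2 fold changes were 3.31 ± 0.22 and 1.17 ± 0.19, and the later one was not called in TPM (0.64, limma adjusted p = 0.0085). In chromatin the mCtx and mNPC levels, 39.1 ± 0.53 and 28.8 ± 4.15 CPM (SD, n = 3), differed by 0.44 ± 0.19 and were not called. Its nucleoplasm means in mESC, mNPC and mCtx were 2.44, 15.4 and 58.3 CPM, and 1.00, 4.03 and 18.3 TPM. On the log2(TPM + 1) scale the later step was the larger there.

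Srrm4 was near the limit of detection outside neurons, with 37 counts over the mESC cytoplasm libraries and 45 over those of mNPC. Its cytoplasmic level was 1.25, 0.621 and 0.524 CPM in mESC, 0.904, 0.991 and 0.447 CPM in mNPC and 114, 133 and 156 CPM in mCtx. The mESC and mNPC values overlapped and the mCtx values lay far above. The rise from mNPC to mCtx was 7.36 ± 0.29. The lower nucleoplasm level in mNPC than in mESC (−1.28 ± 0.42, edgeR adjusted p = 0.0075) was not called without mESC nucleoplasm replicate 1 (−0.62), mNPC nucleoplasm replicate 2 (−0.92) or mNPC nucleoplasm replicate 3 (adjusted p = 0.062). It was also not called in TPM (−0.62). In chromatin the difference between mNPC and mESC was not called in counts. In TPM it was called at −1.22, with 0.65 to 0.83 TPM in mNPC against 2.09 to 3.92 TPM in mESC. The antisense gene Srrm4os overlaps Srrm4 and had 1055 counts in all libraries, against 33702 for Srrm4, and whether the counting used strand is not given in the sources used here.

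In cytoplasm Khdrbs2 had 8 counts over the mESC cytoplasm libraries and 22 over those of mNPC, and its cytoplasmic level in mCtx was 16.8, 16.1 and 16.9 CPM. The groups mCtx and mNPC were wide apart, with a log2 fold change of 5.35 ± 0.27 in cytoplasm and 10.13 ± 0.29 in chromatin. In TPM both rises were called but smaller, 3.07 in cytoplasm and 2.29 in chromatin, where the means were 2.08 TPM in mNPC and 14.0 TPM in mCtx. The difference between mNPC and mESC cytoplasm, 1.24 ± 0.54 (edgeR adjusted p = 0.039), rests on these few counts. It was 0.56 without mESC cytoplasm replicate 3, which held no count, and was not called without mNPC cytoplasm replicate 1 or 2 (adjusted p = 0.068 and 0.12). In chromatin Khdrbs2 fell from 109 counts in mESC to 14 in mNPC, −2.66 ± 0.36, which in TPM was −0.59 and not called.

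In TPM, the scale on which genes can be set side by side, Rbfox2 had the highest mean of the 10 in mCtx cytoplasm at 183 TPM, followed by Elavl3 at 143, Rbfox1 at 69.4, Rbfox3 at 63.5, Nova2 at 52.3, Elavl2 at 36.7, Srrm4 at 22.8, Elavl4 at 22.7, Khdrbs2 at 11.7 and Nova1 at 3.96 TPM. Rbfox1 and Rbfox3, Rbfox1 and Nova2, Rbfox3 and Nova2, Elavl2 and Srrm4, and Srrm4 and Elavl4 overlapped in their replicates. In mNPC cytoplasm the highest means were 27.7 TPM for Nova1, 22.9 for Rbfox2, 15.5 for Nova2 and 14.2 for Elavl4. The replicates of Nova1 and Rbfox2 overlapped, as did those of Nova2 and Elavl4. In mESC cytoplasm Rbfox2 led with 46.9 TPM, before Elavl2 with 16.3 TPM, and the other 8 were at 4.97 TPM or lower.

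Chromatin and cytoplasm were then compared within each cell type. This asks in which fraction a gene makes up the larger share of the polyadenylated RNA, not where most of its transcripts are. In mESC 5 of the 10 were higher in chromatin and none lower, where 56.0% of genes were called, 34.4% higher and 21.6% lower. In mNPC 3 were higher and 1 lower, where 48.9% were called, 27.5% higher and 21.3% lower. In mCtx 2 were higher and 2 lower, where 50.6% were called, 26.2% higher and 24.4% lower. The median log2 fold change of the 10 was 1.14, 0.15 and −0.02 in the 3 cell types, beside 0.37, 0.12 and 0.00 over all genes. On library totals without TMM the median of all genes moved to 0.88, 0.43 and 0.24, and the share of higher calls from 61.4% to 76.5% in mESC and from 56.4% to 66.5% in mNPC. Elavl4 and Rbfox3 were then also called higher in mESC chromatin, and Rbfox2 in mNPC chromatin. In TPM the share of higher calls was 84.3% in mESC, 82.8% in mNPC and 81.3% in mCtx, where it was 51.8% in counts.

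**Figure D4:**
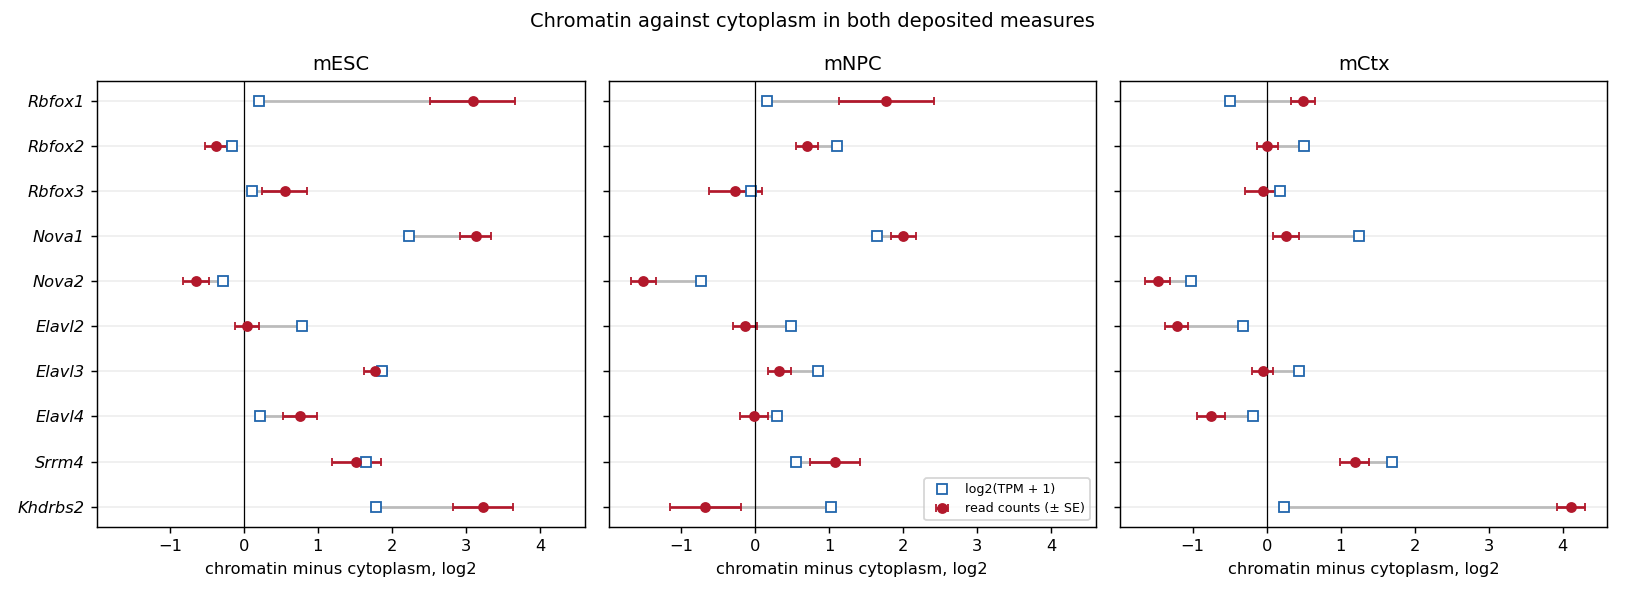
Difference between chromatin and cytoplasm on the log2 scale for each gene, in mESC, mNPC and mCtx; filled circles with SE are from read counts and open squares from the group means of log2(TPM + 1). Srrm4 lies right of 0 and Nova2 left of 0 in all 3 cell types in both measures, and Khdrbs2 in mCtx has the widest gap between the measures.

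Nova2 was lower in chromatin than in cytoplasm in progenitors and neurons. Its mCtx level was 138, 133 and 135 CPM in chromatin, 334, 341 and 385 CPM in nucleoplasm and 328, 391 and 410 CPM in cytoplasm. Chromatin lay below both other fractions without overlap. The log2 fold change of chromatin against cytoplasm was −1.47 ± 0.17 in mCtx and −1.51 ± 0.17 in mNPC (edgeR adjusted p = 1.3e-08 and 1.0e-08), and −0.64 ± 0.18 in mESC, which was not called. In TPM the differences were −1.02, −0.73 and −0.28, and that of mNPC was not called.

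Nova1 was higher in chromatin than in cytoplasm in stem cells and progenitors. In mESC it was 19.5, 23.5 and 23.7 CPM in chromatin against 2.87, 1.86 and 2.91 CPM in cytoplasm, and in mNPC 309, 385 and 361 CPM against 88.6, 99.4 and 75.5 CPM. The fractions did not overlap in either. The log2 fold changes were 3.13 ± 0.21, 2.00 ± 0.17 and, in mCtx, 0.26 ± 0.18, which was not called. The difference between cell types was itself tested: it was −2.87 ± 0.27 between mCtx and mESC and −1.74 ± 0.25 between mCtx and mNPC (edgeR adjusted p = 2.2e-09 and 5.1e-06). In TPM the chromatin excess in mCtx was 1.25 and was called, and the differences between cell types were −0.98 and −0.40 and were not. With a pseudocount of 0.1 that between mCtx and mESC was −1.83 and called, and that between mCtx and mNPC was −0.25 and not.

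Srrm4 was higher in chromatin in all 3 cell types. In mCtx it was 293, 299 and 327 CPM in chromatin and 114, 133 and 156 CPM in cytoplasm, which do not overlap. The log2 fold changes were 1.52 ± 0.34 in mESC, 1.08 ± 0.34 in mNPC and 1.19 ± 0.20 in mCtx. That of mNPC was not called without mNPC chromatin replicate 1 (0.82) or mNPC cytoplasm replicate 3 (0.86), or in TPM (0.55), and it was called in TPM with a pseudocount of 0.1 (1.59). Of the ELAVL genes, Elavl3 was higher in chromatin in mESC by 1.77 ± 0.15 and not called in the other cell types (0.32 ± 0.15 and −0.05 ± 0.14). Elavl2 was lower in mCtx chromatin, 47.2, 41.0 and 46.5 CPM against 124, 83.1 and 106 CPM in cytoplasm, by −1.21 ± 0.16. This call was absent on library totals (−0.95) and in TPM (−0.31).

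None of the RBFOX genes was called between chromatin and cytoplasm in neurons. In mCtx the log2 fold change of chromatin against cytoplasm was 0.49 ± 0.16 for Rbfox1, 0.01 ± 0.15 for Rbfox2 and −0.05 ± 0.25 for Rbfox3. The Rbfox1 libraries of the fractions did not overlap in counts, and in TPM its difference had the opposite sign (−0.50). For Rbfox2 the mCtx chromatin libraries lay above cytoplasm in TPM without overlap, at 247 to 265 against 162 to 214 TPM. In mNPC the chromatin excess of Rbfox2 was not called in the reported fit. It was called in TPM (1.10) and on library totals without TMM (1.01). Rbfox1 in mESC had 39 counts in chromatin and 3 in cytoplasm, a ratio of 9.35 (95% exact interval 2.97 to 47.3, counting error only), and in mNPC 15 and 4 counts, a ratio of 3.67 (1.17 to 15.2). In TPM the differences were 0.21 and 0.16 and not called; with a pseudocount of 0.1 that of mESC was 1.04 and called and that of mNPC 0.83 and not. The mNPC call was also lost without mNPC cytoplasm replicate 1 (adjusted p = 0.10) or mNPC chromatin replicate 2 (adjusted p = 0.078).

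Khdrbs2 showed the widest gap between fractions, and it was present in only 1 of the deposited measures. In mCtx its counts gave 277, 289 and 294 CPM in chromatin, 34.9, 42.5 and 36.4 CPM in nucleoplasm and 16.8, 16.1 and 16.9 CPM in cytoplasm, a stepwise order without overlap. Chromatin exceeded cytoplasm by 4.11 ± 0.19 (edgeR adjusted p = 1.0e-15). In TPM the same libraries gave 13.3, 14.1 and 14.5 in chromatin, 8.22, 9.44 and 6.59 in nucleoplasm and 12.1, 11.4 and 11.6 in cytoplasm, a difference of 0.24 between chromatin and cytoplasm that was not called (limma adjusted p = 0.37). The count table's length equals the whole gene span, 484.933 kb for Khdrbs2, with introns inside. Over the 17919 genes in both measures, the upper decile of the count-based minus the TPM-based difference was 0.89 in mCtx, and that of Khdrbs2 was 3.87. In mESC its chromatin excess was 3.23 ± 0.41 in counts, from 109 and 8 counts, and 1.79 in TPM, and in mNPC the measures had opposite signs (−0.67 ± 0.48 and 1.02). What sets the measures apart was not tested. Gm5415 and other short genes lie on the opposite strand within the span of Khdrbs2, with 123 counts for Gm5415 against 20149 for Khdrbs2.

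Fewer of the 10 were called between nucleoplasm and cytoplasm. In mESC 1 of the 10 was called, Nova1 at 1.99 ± 0.21 (0.75 and not called in TPM, 1.40 and called with a pseudocount of 0.1), where 36.5% of genes were called, 27.5% higher and 8.94% lower. In mCtx 1 was called, Khdrbs2 at 1.19 ± 0.18, where 21.3% were called, 11.7% higher and 9.57% lower, and in TPM its difference had the opposite sign (−0.49). In mNPC none was called by edgeR or by DESeq2, where 25.0% of genes were called by edgeR, 16.4% higher and 8.56% lower. Of the 10, 3 had an unadjusted p under 0.05 there: Nova2 (−0.90 ± 0.17), Elavl4 (−0.93 ± 0.20) and Elavl2 (−0.59 ± 0.17). All 3 were lower in nucleoplasm, by less than the fold threshold of 1. The share of all genes under this unadjusted p was not computed, so the count of 3 has no background beside it.

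Among the tests of whether the chromatin-to-cytoplasm difference changes with cell type, 1 of the 10 shifted towards chromatin and 3 towards cytoplasm from mESC to mNPC, where 28.0% of genes were called, 10.3% towards chromatin and 17.7% towards cytoplasm. From mNPC to mCtx 1 shifted towards chromatin and 2 towards cytoplasm, where 19.0% were called, 7.68% and 11.4% in these directions. From mESC to mCtx 5 were called, where 40.6% were called, 15.7% and 24.9%. All 5 of the last were shifts towards the cytoplasm in mCtx, with a median of −1.04 over the 10 beside −0.30 over all genes. Beside Nova1, Elavl3 shifted by −1.83 ± 0.21, Elavl4 by −1.51 ± 0.30 and Elavl2 by −1.26 ± 0.22, while the value of Rbfox1 rests on 3 counts in mESC cytoplasm. The shift of Elavl4 was −0.40 in TPM and not called. Rbfox2 shifted towards chromatin from mESC to mNPC by 1.07 ± 0.21, a value under the fold threshold without mESC chromatin replicate 1 (0.95), mESC cytoplasm replicate 2 (0.99) or replicate 3 (0.85), or mNPC chromatin replicate 2 (1.00). The shift of Elavl2 between mCtx and mNPC, −1.08 ± 0.23, was likewise not called without mNPC chromatin replicate 2, mNPC cytoplasm replicate 3 or mCtx cytoplasm replicate 1 (−0.97, −0.92 and −0.94) or in TPM (−0.80).

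Other regulators of splicing and RNA stability were read from a list of 40 genes, all tested. From mNPC to mCtx cytoplasm 14 rose, 8 fell and 18 were not called, where 24.4% of all genes rose and 20.0% fell, with a median log2 fold change of 0.04 beside 0.00 over all genes. From mESC to mNPC 14 rose and 14 fell, where 29.8% of all genes rose and 29.6% fell, with a median of −0.36 beside −0.01. The paralogs of the members differed among themselves. Elavl1, the ubiquitous ELAVL gene, was 225 ± 40.0 CPM in mESC cytoplasm, 109 ± 3.93 in mNPC and 171 ± 0.80 in mCtx (SD, n = 3), and fell at the step to mNPC by 1.06. The measures differed for Elavl1 from mNPC to mCtx. Its cytoplasmic TPM was 113 ± 28.4, 55.8 ± 2.68 and 36.1 ± 1.81 in the same order, lower in mCtx than in mNPC. Khdrbs3, a close relative of Khdrbs2, rose to 340 ± 15.8 CPM in mCtx cytoplasm from 78.2 ± 6.73 in mNPC, whereas Khdrbs1, which encodes SAM68, was not called in any of these 3 cytoplasm comparisons. Srrm3, the paralog of Srrm4, rose from 0.523 ± 0.24 to 38.6 ± 7.47 CPM and was higher in mCtx chromatin, at 234 ± 9.23 CPM, by 2.60.

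The splicing repressor Ptbp1, which keeps neuronal exons out of transcripts in other cells, fell at both steps in cytoplasm, from 1072 ± 305 CPM in mESC to 249 ± 10.4 in mNPC and 108 ± 10.2 in mCtx. Its neuronal paralog Ptbp2 rose at both, from 27.7 ± 6.01 to 73.0 ± 6.67 and 170 ± 8.09 CPM (SD, n = 3). In chromatin neither gene was called between mNPC and mCtx, with log2 fold changes of 0.12 for Ptbp1 and 0.03 for Ptbp2. Rest encodes a repressor of neuronal genes, and SRRM4 is known to act on its transcript. Rest fell from 448 ± 44.0 CPM in mESC cytoplasm to 27.2 ± 3.79 in mNPC and stood at 14.6 ± 1.80 CPM in mCtx, a further −0.90 that was not called. Srrm4 was at 0.799 ± 0.40 CPM in mESC cytoplasm, 0.781 ± 0.29 in mNPC and 134 ± 20.9 in mCtx. A link between the levels of Rest and Srrm4 was not tested.

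Transcripts known from earlier work as targets of these proteins were read from a list of 30 genes, all tested. From mESC to mNPC cytoplasm 16 rose and 4 fell, where 29.8% of all genes rose and 29.6% fell, with a median of 1.32 beside −0.01. From mNPC to mCtx cytoplasm 20 rose and 2 fell, where 24.4% and 20.0% did, with a median of 2.41 beside 0.00. In chromatin this step had 21 that rose and 2 that fell, where 23.5% and 21.4% did, with a median of 2.09 beside 0.00. Gap43, a growth cone gene whose transcript ELAVL4 binds, rose from 73.2 ± 14.5 CPM in mNPC cytoplasm to 1679 ± 58.8 in mCtx (SD, n = 3). Dab1, a reelin pathway gene with NOVA-dependent exons, rose from 53.5 ± 7.61 to 226 ± 22.5 CPM. These are gene totals, and exon inclusion was not measured here.

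Markers of other cell types moved between the same groups. The summed level of 8 oligodendrocyte-lineage genes was 2762 to 2888 CPM in mNPC cytoplasm, 6.23 to 13.7 CPM in mESC and 267 to 317 CPM in mCtx, and Mog was at 0 in mNPC. That of 10 neural progenitor genes was 6646 to 6797, 708 to 733 and 1269 to 1707 CPM in the same order. That of 7 astrocyte genes was 1020 to 1341 CPM in mNPC and 437 to 491 CPM in mCtx, and that of 10 inhibitory neuron genes was 480 to 510 CPM in mCtx and at most 5.64 CPM in mNPC, where Slc32a1 and Sst were at 0. The 8 microglia genes summed to 63.5 to 73.4 CPM in mCtx cytoplasm, 60.2 to 106 CPM in mESC and 28.4 to 32.5 CPM in mNPC, with C1qa and C1qb at 0 in mESC and mNPC and no gene of the list at 0 in mCtx. The part of these cells in the results on Nova1, Elavl4 and the other genes was not tested.

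Across the 27 libraries the members varied together to unequal degrees, as Pearson's r of log2(CPM + 1), a description over libraries that share cell types and fractions. Rbfox1 and Srrm4 were the closest pair with r = 0.993, followed by Rbfox1 with Rbfox3 at 0.985 and Rbfox3 with Srrm4 at 0.983. Nova1 and Elavl2 were the most opposed at −0.701. Among 12405 other genes with at least 10 CPM in some group, the 2 most like Rbfox1 were Ntf3 and Fezf2, and those most like Srrm4 were Nrg3 and Dlg2. Rbfox3 was followed most closely by Mpped1 and Iqsec3, Rbfox2 by Trim2 and Csrnp2, Elavl3 by Clmp, and Khdrbs2 by Kcnip4 and L3mbtl4. For Elavl2 they were Neurod1 and Stmn2, for Elavl4 Ssbp2 and Mapk10, for Nova2 Dpysl3 and Cplx2, and for Nova1 Ikzf2 and Ppm1k. The r of the pairs named here ran from 0.9579 for Elavl2 with Stmn2 to 0.9979 for Rbfox1 with Ntf3.

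The counted spans lie in mm10. Rbfox1 is counted over chromosome 16 from 6809222 to 7412479 on the plus strand, 39.53% of its span in the GENCODE M21 annotation, which starts at 5885355, so reads upstream of 6809222 are outside its counts. On the minus strand lie Rbfox2 on chromosome 15 from 77078990 to 77307053, Rbfox3 on chromosome 11 from 118489762 to 118911597, Nova1 on chromosome 12 from 46694517 to 46818775, Elavl2 on chromosome 4 from 91250763 to 91400785. Also on the minus strand lie Elavl3 on chromosome 9 from 22015005 to 22052023, Elavl4 on chromosome 4 from 110203722 to 110351909 and Srrm4 on chromosome 5 from 116439272 to 116591817. On the plus strand lie Nova2 on chromosome 7 from 18925888 to 18965319 and Khdrbs2 on chromosome 1 from 32172806 to 32657738. Elavl3 and Nova2 have the shortest spans, 37.019 and 39.432 kb, and 5 of the 10 spans are identical to those of GENCODE M21.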

How the data were processed

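For all 27 libraries the authors deposited gene-level counts of reads and, in a separate table, gene-level TPM. The submitters' processing notes name STAR, featureCounts, kallisto 0.43.0 and the mm10 build, without saying which made which table, and the sources used here give neither the annotation nor the strand setting. The headers of all 27 columns of the count table name cell type, fraction and replicate. The columns hold whole-number read counts as deposited, and they were analysed together. The gene lengths in the count table equal the gene spans, introns included. Totals were 10622897 to 24537526 counts per library, so the precision of genes with few counts is set by counting error, and exact 95% intervals cover that error only.

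Counts were fitted with edgeR 4.0.16 in R 4.3.3 (quasi-likelihood F-test, TMM, filterByExpr, 1 coefficient for each of 9 groups), with 17 contrasts over 18226 genes and Benjamini-Hochberg adjustment over all of them. The fit was tested on simulated data. SE is the log2 fold change divided by the square root of F. DESeq2 1.42.0, other scalings and filters, fewer libraries, and limma 3.58.1 on log2(TPM + 1) and log2(TPM + 0.1) were alternatives. The members, the lists and the tests were chosen with earlier results of these data known. All 10 members are named; other named genes are their paralogs, Ptbp1 and Ptbp2, known targets, and for each member the 2 genes of highest correlation, some of which are not reported here. Libraries with the same number deviated together across fractions in mESC (r of 0.425 to 0.774) and between chromatin and cytoplasm in mCtx (0.212 to 0.33), but not in every pair of mNPC or between cell types.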

Additional observations from a re-analysis of the deposited data

Results flagged for a closer look

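In 12 cases the difference between chromatin and cytoplasm changed between cell types by edgeR's test of that change itself, given here as log2 fold change ± SE. From mESC to mNPC these were Rbfox2 (1.07 ± 0.21, towards chromatin), Nova1 (−1.13 ± 0.27), Elavl3 (−1.45 ± 0.22) and Khdrbs2 (−3.90 ± 0.65). From mNPC to mCtx they were Nova1 (−1.74 ± 0.25), Elavl2 (−1.08 ± 0.23) and Khdrbs2 (4.78 ± 0.53). From mESC to mCtx they were Rbfox1 (−2.60 ± 0.62), Nova1 (−2.87 ± 0.27), Elavl2 (−1.26 ± 0.22), Elavl3 (−1.83 ± 0.21) and Elavl4 (−1.51 ± 0.30). The value of Rbfox1 rests on 3 counts in mESC cytoplasm and depends on the prior count of the fit. The Khdrbs2 values rest on 8 counts in mESC cytoplasm and on 14 and 22 counts in mNPC chromatin and cytoplasm, and in TPM the shift from mNPC to mCtx was −0.78, with the opposite sign, and that from mESC to mNPC −0.77 and not called. In TPM the shifts of Nova1 were −0.59 from mESC to mNPC, −0.40 from mNPC to mCtx and −0.98 from mESC to mCtx, that of Elavl2 from mNPC to mCtx −0.80, that of Rbfox1 −0.71 and that of Elavl4 −0.40, none of them called. With a pseudocount of 0.1, those of Nova1 from mESC to mNPC (−1.58) and to mCtx (−1.83) and that of Rbfox1 (−1.55) were called, as was that of Khdrbs2 from mNPC to mCtx, with the sign opposite to the counts (−1.63).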

How the results depend on the processing

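Of the single-gene results under other settings, 2792 kept their call or their lack of one, 111 lost the call and 58 gained it. A change of sign called in neither fit is counted among the 2792, as for Rbfox1 between mCtx chromatin and cytoplasm in TPM. The other 15 changed direction with a call in the reported or the other fit. All 15 were Khdrbs2 in TPM with a pseudocount of 1, with or without a filter, or of 0.1: mNPC against mESC nucleoplasm −1.02 and −2.33, chromatin against cytoplasm in mNPC 1.02 and 1.89, nucleoplasm against cytoplasm in mCtx −0.49 and −0.54, and the shifts of the chromatin difference from mNPC to mCtx −0.78 and −1.63 and from mESC to mCtx −1.55 and −2.93. The cause was not tested.

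The larger relative moves in the counts of the 10 genes were as follows, with the reported count in brackets. DESeq2 and RLE size factors each gave 2 (4) lower from mESC to mNPC nucleoplasm and 2 (1) called between mESC nucleoplasm and cytoplasm, 1 (0) lower. Leaving out the mESC libraries numbered 1, a minimum of 1 CPM, and no filter each gave 2 (4) lower in that nucleoplasm comparison and 0 (1) shifts towards chromatin from mESC to mNPC. The first of these gave 5 (3) shifts the other way, and no filter gave 2 (1) called between mESC nucleoplasm and cytoplasm, 1 (0) lower. Library totals gave 1 (2) lower from mESC to mNPC cytoplasm, 1 (2) lower in mCtx chromatin against cytoplasm, 2 (1) called and 2 (1) higher in mESC nucleoplasm, 2 (0) called and 2 (0) lower in mNPC nucleoplasm and 0 (1) shifts towards chromatin from mESC to mNPC. On library totals Elavl4 (1.29) and Rbfox3 (1.06) were also called higher in mESC chromatin against cytoplasm, and Rbfox2 (1.01) in mNPC. Fitting only the libraries compared gave 2 (4) called and 1 (3) higher in mNPC chromatin against cytoplasm and 0 (1) such shifts.

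In TPM with either pseudocount, 3 (5) were lower from mESC to mNPC chromatin, 0 (1) lower in mNPC and 1 (2) lower in mCtx chromatin against cytoplasm, 0 (1) called and higher in mCtx nucleoplasm against cytoplasm, and 1 (3) shifted from mNPC to mCtx. With a pseudocount of 1, 1 (2) was lower from mESC to mNPC cytoplasm, 0 (1) were called and higher in mESC nucleoplasm, 2 (0) called and lower in mNPC nucleoplasm, 0 (2) shifted towards cytoplasm from mNPC to mCtx and 3 (5), all 3 (5) lower, from mESC to mCtx. With 0.1, 5 (3) were higher in mNPC chromatin, 3 (1) called and higher in mESC nucleoplasm, 3 (0) called and lower in mNPC nucleoplasm, and 0 (1) shifted towards chromatin and 1 (2) towards cytoplasm from mNPC to mCtx. Over all genes, shifts from mNPC to mCtx numbered 5417 with a pseudocount of 1, 5357 without a filter and 5592 with 0.1 (3472), and calls between mNPC chromatin and cytoplasm 14714 with 0.1 (8904).

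Leaving out 1 library at a time gave 4 to 7 called and 1 to 4 lower from mESC to mNPC nucleoplasm, and 1 to 3 lower in cytoplasm. It gave 2 to 2 called, 1 to 2 higher and 0 to 1 lower in mESC nucleoplasm against cytoplasm, 0 to 1 called and lower in mNPC, and 1 to 2 called and 0 to 1 lower in mCtx. For the shifts it gave 0 to 1 towards chromatin and 3 to 5 towards cytoplasm from mESC to mNPC, 1 to 2 towards cytoplasm from mNPC to mCtx and 0 to 1 towards chromatin from mESC to mCtx. Higher calls between nucleoplasm and cytoplasm made up 65.7% in mNPC, 42.2% on library totals 76.8% with RLE and 33.8% in TPM, and in mESC 75.5% and, on library totals, 90.8%. Among shifts from mESC to mNPC they made up 36.8% and, on library totals, 24.8%.

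With the replicate block, which gives libraries of the same number a shared term, no call of the 10 genes changed. The term was shared within a cell type for comparisons of fractions and for shifts. For comparisons of cell types it was shared across cell types. Over all genes the block gave 10324 calls between mESC chromatin and cytoplasm (10198 without it), 9379 in mCtx (9223) and 3836 shifts from mNPC to mCtx (3472).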
